A study of Mus musculus with 6 samples.

Results

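The liver builds, stores and releases fat in several steps, and 36 genes of these steps are described here in GHRH-KO and control liver. They cover the synthesis of fatty acids, the transcription factors that drive it, desaturation, elongation, the esterification of fatty acids to triglyceride, and the lipid droplets that store triglyceride and release it again. Each gene was read by 1 probe set, the one with the highest mean over the 6 arrays among those that the probe annotation assigns to a single gene, and the table held 18194 genes with such a probe set. All 36 genes had one.

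Liver RNA came from 3 GHRH-KO mice, in which the gene for growth hormone-releasing hormone was disrupted so that growth hormone is deficient, and from 3 wild-type littermates, the controls. All 6 were males of a mixed C57BL6 and 129SV background from a closed colony, aged 10 months by the methods, on the same chow and fasted for 6 to 8 h, and each array held the RNA of 1 animal. The gene is disrupted in the whole animal and for life, so an effect on the liver itself and one that reaches it from other tissues cannot be told apart. The Ghrh probe set did not exceed 4.75 on any array, and 39.3% to 46.7% of the probe sets of an array lay below its own Ghrh value, so in liver it does not check the labels.

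The values are RMA values on the log2 scale, in which a difference of 1 is a doubling, and a level of one probe set cannot be set against that of another. Array medians lay between 4.95 and 4.99. The arrays GHRH-KO 5 and control 2 stood apart, with interquartile ranges of the probe sets' deviations of 0.357 and 0.316 against 0.185 to 0.249 on the other 4 arrays. Hepatocyte markers were far above background, with Alb at 14.47 in controls and 14.56 in GHRH-KO mice. None of the 9 tested was called and 1 had an unadjusted p under 0.05, while their summed linear level was higher in every GHRH-KO mouse (138213 to 141852) than in any control (132693 to 137146). As whole liver was measured, fewer cells of a type and less RNA per cell cannot be told apart.

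In fat synthesis, citrate that has left the mitochondria is cut to acetyl-CoA, carboxylated to malonyl-CoA and joined to palmitate, which is then elongated and desaturated. The fatty acids are placed on a glycerol backbone one after another, a phosphate is removed on the way, and the triglyceride is kept in droplets coated with perilipins, from which lipases free it. SREBP-1, encoded by Srebf1, and ChREBP, encoded by Mlxipl, are the transcription factors through which insulin and glucose are known to raise these enzymes in liver, and growth hormone acts on hepatocytes through STAT5.

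Of the 36 genes, 33 passed the intensity filter and were tested, and 2 of them passed the test (adjusted p under 0.05 by limma with a fold change above 1.5 or below 0.67). Elovl3, an elongase, fell, and Mogat1, an acyltransferase, rose. The 1 gene called higher stands beside 98 of all 12469 genes tested, or 0.786%, and the 1 called lower beside 121, or 0.97%. At an unadjusted p under 0.05, 3 members were higher, or 9.09% of those tested, against 9.15% of all genes, and 5 were lower, or 15.2%, against 10.1%. All GHRH-KO arrays lay above all control arrays in 2 members, or 6.06%, against 12.7% of all genes, and below them in 7, or 21.2%, against 15.7%. The groups overlapped in the remaining 24. The differences of the 33 members had a median of 0.01, beside 0.0033 for all genes, with 17 above 0 and 16 below.

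**Figure D1:**
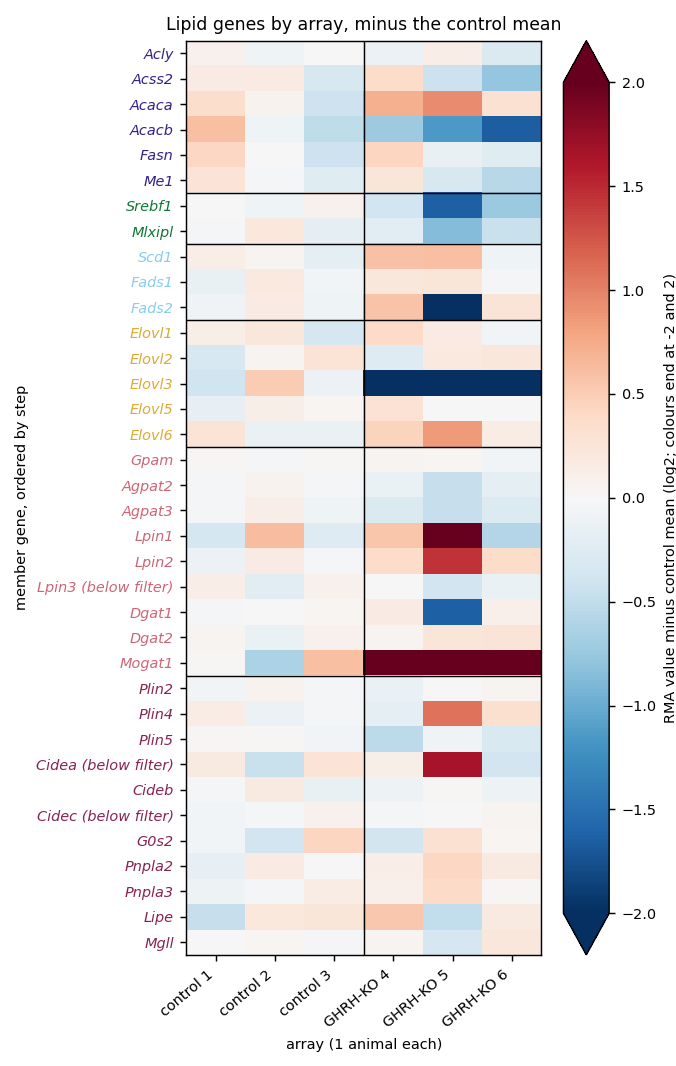
Each cell gives the RMA value of 1 member on 1 array minus the mean of the 3 control arrays (log2), with members in rows ordered by step and arrays in columns. Elovl3 is dark blue in the 3 GHRH-KO columns and Mogat1 dark red, and the column of GHRH-KO 5 is stronger in colour than those of GHRH-KO 4 and GHRH-KO 6 in Fads2, Dgat1, Srebf1, Lpin1 and Lpin2.

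The 6 enzymes of fatty acid synthesis did not move together. None was called, and their differences ran from -1.18 to 0.66 with a median of -0.15. The 2 acetyl-CoA carboxylases, which make malonyl-CoA, stood at opposite ends of that range. Acacb, the form at the mitochondrial outer membrane whose malonyl-CoA restrains the entry of fatty acids into oxidation, measured 8.58, 7.89 and 7.48 in controls 1 to 3 and 7.25, 6.83 and 6.33 in GHRH-KO 4 to 6. Every GHRH-KO array lay below every control, and the difference was -1.18 ± 0.33 (SE, n = 3 per group), with an unadjusted p of 0.0085 and an adjusted p of 0.138 in limma. Acaca, the cytosolic form that supplies fatty acid synthase, measured 9.78, 9.49 and 9.00 in controls and 10.13, 10.38 and 9.73 in GHRH-KO mice. Control 1 lay above GHRH-KO 6, so the groups overlapped, and the difference of 0.66 ± 0.24 had an unadjusted p of 0.0291 and an adjusted p of 0.222 in limma. Neither carboxylase passed the test.

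Fasn, the fatty acid synthase itself, measured 11.78, 11.38 and 10.97 in controls and 11.81, 11.23 and 11.14 in GHRH-KO mice. Both groups covered the same range, and the difference was 0.02 with a 95% interval from -0.58 to 0.62, which leaves room for a change of that size in either direction. Acly, which cuts citrate to acetyl-CoA, differed by -0.09 (95% interval -0.42 to 0.24), Acss2, which makes acetyl-CoA from acetate, by -0.27 (-0.97 to 0.43), and Me1, the malic enzyme that supplies NADPH, by -0.21 (-0.76 to 0.34). Of these 4 genes none had groups that lay apart.

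Both transcription factors of the pathway were lower on every GHRH-KO array than on any control array, and neither passed the test. Srebf1 measured 11.44, 11.36 and 11.52 in controls and 11.06, 9.80 and 10.69 in GHRH-KO mice. The controls lay within a narrow band, and GHRH-KO 5 lay well under the other knockouts. The difference was -0.92 ± 0.30 (unadjusted p 0.0176, adjusted p 0.182 in limma) and -0.56 without GHRH-KO 5. Srebf1 had no other probe set. Mlxipl measured 11.43, 11.68 and 11.28 in controls and 11.25, 10.59 and 11.02 in GHRH-KO mice. The groups were separated only narrowly, between control 3 and GHRH-KO 4, and the difference was -0.51 ± 0.20 (unadjusted p 0.0346, adjusted p 0.238 in limma). Without both control 2 and GHRH-KO 5 it was -0.22.

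The Mlxipl gene is shown with a RefSeq promoter because it was the only member promoter that held the sterol regulatory element searched for, TCACNCCAC, on either strand of the 250 bases before to 50 after a start site. The match lies in the window chr5:135106641-135106940 (GRCm38.p6, plus strand) and is printed in capitals, with its first base at position -136 from the start.
Mlxipl: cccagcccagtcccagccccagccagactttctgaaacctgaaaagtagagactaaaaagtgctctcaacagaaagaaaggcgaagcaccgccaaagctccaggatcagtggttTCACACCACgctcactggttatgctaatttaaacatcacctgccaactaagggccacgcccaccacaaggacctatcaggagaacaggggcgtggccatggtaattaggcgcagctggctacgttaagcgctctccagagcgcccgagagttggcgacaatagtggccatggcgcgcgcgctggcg
This element stood in 408 of the 32851 RefSeq promoters, or 1.24%, and in 1 of the 44 promoters of members, which belong to 30 genes. For 6 members, Cidea, Dgat1, Dgat2, Elovl3, Fads1 and Scd1, no promoter was available, so they were not searched. The window of the other Mlxipl start site did not hold it. The match describes these letters and does not show that the site is used.

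Desaturation showed no called gene and none with an unadjusted p under 0.05. Scd1, which makes oleate from stearate, measured 13.55, 13.46 and 13.22 in controls and 13.99, 14.02 and 13.34 in GHRH-KO mice. GHRH-KO 4 and GHRH-KO 5 lay above the controls and GHRH-KO 6 within them, and the difference was 0.37 with a 95% interval from -0.12 to 0.86. The other tested probe set of Scd1 read 9.60, 9.12 and 8.56 in controls and 10.90, 10.52 and 8.73 in GHRH-KO mice, a larger difference of 0.96 (95% interval -0.35 to 2.27) with groups that overlapped, and the mean of the Scd1 probe sets gave 0.66. Fads1, a desaturase of polyunsaturated fatty acids, differed by 0.15 (95% interval -0.18 to 0.48). Fads2, which carries out the first step of that route, measured 10.67, 10.91 and 10.67 in controls and 11.32, 6.40 and 11.00 in GHRH-KO mice. A single array, GHRH-KO 5, set its difference of -1.17, which became 0.41 without that array. The 2 other Fads2 probe sets did not show the drop. One read 10.52, 10.01 and 10.09 in GHRH-KO mice against 9.92, 10.10 and 9.98 in controls, and the other 8.92, 8.80 and 8.63 against 8.27, 8.48 and 8.18. No direction is given for Fads2.

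Elongation held the largest difference of the 33 members tested. Elovl3 elongates saturated and monounsaturated fatty acids to very long chains, and in liver it is known as a gene of males. It measured 11.85, 12.76 and 12.14 in controls and 7.38, 7.86 and 7.09 in GHRH-KO mice. The lowest control lay far above the highest knockout. The mean was 12.25 ± 0.47 (SD, n = 3) in controls and 7.44 ± 0.39 in GHRH-KO mice, so Elovl3 fell by 4.81 on the log2 scale (SE 0.28), and controls were 28.0-fold higher, at an adjusted p of 0.00059 in limma. It was called under all 17 alternatives tried, at differences from -5.02 to -4.55 and adjusted p of at most 0.0065. Elovl3 has 1 probe set, so alternatives that chose among probe sets or dropped the fold threshold could not change its difference.

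The other 4 elongases were not called. Elovl2, Elovl5 and Elovl1, which extend polyunsaturated fatty acids in the case of Elovl2 and Elovl5 and long saturated ones in the case of Elovl1, differed by 0.06 (95% interval -0.42 to 0.53), 0.10 (-0.23 to 0.42) and 0.16 (-0.28 to 0.60). The other 2 tested probe sets of Elovl1 differed by 0.24 and -0.55. Elovl6, which takes palmitate to stearate, measured 10.02, 9.62 and 9.62 in controls and 10.20, 10.60 and 9.91 in GHRH-KO mice. Its difference was 0.48 (unadjusted p 0.0505 in limma), but a dimmer probe set of Elovl6 lay lower on every GHRH-KO array, at 5.70, 5.40 and 5.53 against 6.30, 5.96 and 5.96, a difference of -0.53. A further Elovl6 probe set read 9.62, 9.08 and 8.85 in controls and 9.63, 8.64 and 9.09 in GHRH-KO mice. Its difference was -0.07, with groups that overlapped. The probe sets thus gave opposite signs, and no direction is given for Elovl6.

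**Figure D2:**
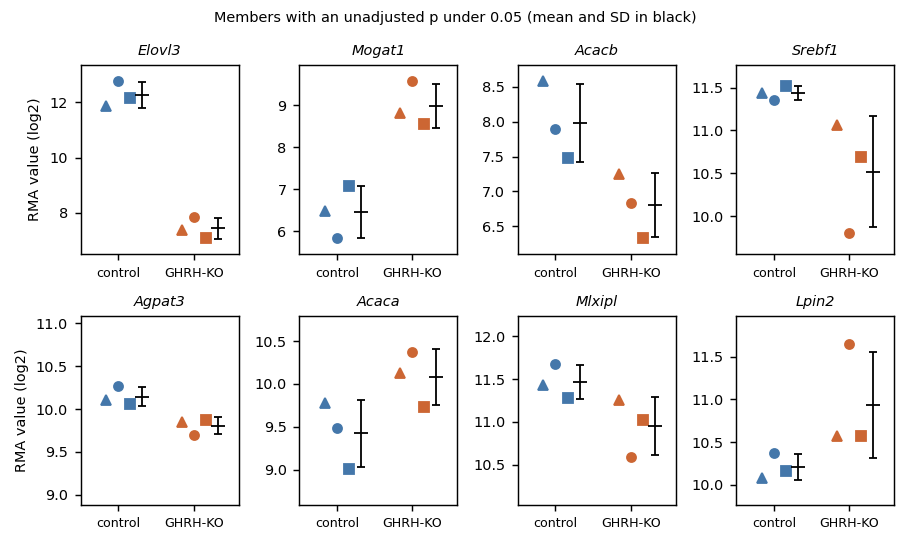
RMA values (log2) of the 8 members with an unadjusted p under 0.05, ordered by p, in controls (blue; triangle, circle and square are controls 1, 2 and 3) and GHRH-KO mice (orange; GHRH-KO 4, 5 and 6), with the mean and SD in black and an axis per gene that does not start at 0. Elovl3 and Mogat1 show the widest gaps between groups, the lowest Srebf1 and the highest Lpin2 are GHRH-KO 5, and only Acaca has groups that overlap. The choice by p favours groups that lie apart.

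Esterification held the other gene called. Mogat1 joins a fatty acid to monoacylglycerol and so makes diacylglycerol without the glycerol phosphate route. It measured 6.48, 5.83 and 7.07 in controls and 8.82, 9.57 and 8.54 in GHRH-KO mice. All GHRH-KO arrays lay above all controls, with means of 8.98 ± 0.53 (SD, n = 3) and 6.46 ± 0.62. Mogat1 rose by 2.52 on the log2 scale (SE 0.37), or 5.73-fold, at an adjusted p of 0.026 in limma. It was called under 12 of the 17 alternatives. Mogat1 also has 1 probe set, so alternatives that chose among probe sets or dropped the fold threshold could not change its difference. The call was lost without control 1 (adjusted p 0.0742), control 2 (0.0812), GHRH-KO 4 (0.0667) or GHRH-KO 6 (0.0563), and without both control 2 and GHRH-KO 5 (0.0525), while the difference stayed between 1.91 and 2.82 in all 17.

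The promoter of Mogat1 is shown because this gene was the member that rose (chr1:78510810-78511109, GRCm38.p6, plus strand, RefSeq).
Mogat1: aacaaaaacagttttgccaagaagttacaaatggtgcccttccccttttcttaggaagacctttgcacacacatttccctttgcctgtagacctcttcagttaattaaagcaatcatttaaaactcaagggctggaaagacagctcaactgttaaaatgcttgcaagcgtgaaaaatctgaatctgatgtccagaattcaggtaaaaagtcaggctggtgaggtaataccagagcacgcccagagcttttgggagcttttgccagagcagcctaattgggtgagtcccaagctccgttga
It held neither the sterol regulatory element nor the STAT5 letters TTCNNNGAA. The STAT5 letters were found in 2726 of 32851 promoters, or 8.3%, and in 1 of the 44 promoters of members, that of Lipe, whose match TTCAAGGAA has its first base at position -3. Elovl3, the other gene called, was among the 6 members with no promoter to search.

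None of the other 7 members of this step that were tested was called. Gpam, which starts triglyceride synthesis at the mitochondrion, had the closest groups, at 12.00, 11.95 and 12.00 in controls and 12.05, 12.02 and 11.93 in GHRH-KO mice, a difference of 0.01 (95% interval -0.23 to 0.26). Of the acyltransferases that add the next fatty acid, Agpat2 measured 11.68, 11.79 and 11.68 in controls and 11.58, 11.26 and 11.51 in GHRH-KO mice. It was lower on every GHRH-KO array by a narrow margin, with a difference of -0.26 (95% interval -0.56 to 0.04). Agpat3 measured 10.10, 10.27 and 10.06 in controls and 9.85, 9.69 and 9.88 in GHRH-KO mice, a difference of -0.34 ± 0.12 (unadjusted p 0.0236, adjusted p 0.204 in limma). Its other 3 probe sets differed by 0.05, 0.21 and -0.08, so the lower level was seen in 1 probe set of 4.

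The lipins remove the phosphate. Lpin2 measured 10.09, 10.37 and 10.16 in controls and 10.57, 11.65 and 10.57 in GHRH-KO mice. Its groups lay apart, with a difference of 0.72 ± 0.29 (unadjusted p 0.0421, adjusted p 0.259 in limma), which was 0.37 without GHRH-KO 5. The other 3 probe sets of Lpin2 differed by 0.71, -0.12 and 0.90, with groups that overlapped. Lpin1 measured 8.24, 9.21 and 8.33 against 9.14, 10.93 and 8.01, and its difference of 0.77 came down to -0.01 without GHRH-KO 5. Lpin3 lay at background, with means of 4.64 and 4.47, and was not tested. Dgat1 and Dgat2 close the pathway by adding the last fatty acid. Dgat1 measured 8.62, 8.67 and 8.70 in controls and 8.82, 7.03 and 8.76 in GHRH-KO mice, so that its difference of -0.46 was again set by GHRH-KO 5 and was 0.13 without it. Dgat2 differed by 0.18 (95% interval -0.11 to 0.47), and its other probe set by -0.21.

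**Figure D3:**
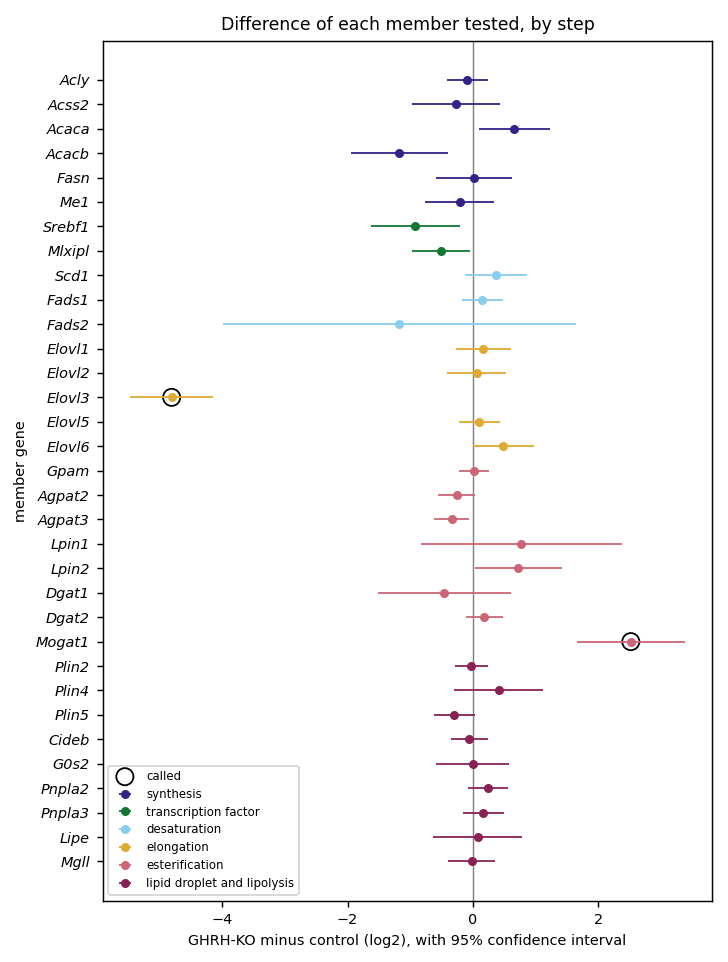
Difference of each of the 33 members tested, GHRH-KO minus control (log2), with its 95% confidence interval, coloured by step, and with circles around the called genes. Elovl3 at -4.81 and Mogat1 at 2.52 stand outside the rest, whose differences lie between -1.18 and 0.77, and Fads2 has the widest interval, from -3.99 to 1.64.

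Of the 11 genes of lipid droplets and lipolysis, 9 were tested and none was called, with a median difference of -0.01 and none with an unadjusted p under 0.05. Plin2, the main droplet coat protein of liver, measured 12.32, 12.46 and 12.36 in controls and 12.25, 12.38 and 12.43 in GHRH-KO mice. The groups covered the same range, and the difference was -0.02 with a 95% interval from -0.29 to 0.24. Plin5, a coat protein of tissues that oxidise fat, measured 9.77, 9.78 and 9.70 in controls and 9.22, 9.67 and 9.45 in GHRH-KO mice, lower on every array, with a difference of -0.30 (95% interval -0.63 to 0.03). The second Plin5 probe set did not show this, at 8.60, 8.52 and 8.67 in controls and 8.52, 8.59 and 8.60 in GHRH-KO mice, a difference of -0.02 (95% interval -0.27 to 0.23). Plin4, another coat protein, differed by 0.41 (-0.30 to 1.12), with its highest value on GHRH-KO 5. Cideb, which takes part in loading lipoproteins with fat, differed by -0.06 (-0.36 to 0.24).

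Cidea and Cidec, which fuse droplets, were at background and were not tested. Cidec measured between 3.72 and 3.85 on all 6 arrays. Cidea lay between 3.75 and 4.46 on 5 arrays and at 5.84 on GHRH-KO 5.

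The lipases showed no called gene. Pnpla2, which takes the first fatty acid from triglyceride, differed by 0.24 (95% interval -0.08 to 0.57), and G0s2, its inhibitor, by -0.01 (-0.59 to 0.58). Lipe, which cuts diacylglycerol, differed by 0.08 (-0.63 to 0.78), and Mgll, which cuts monoacylglycerol, by -0.02 (-0.39 to 0.36). Pnpla3, a droplet protein, stayed close to background at means of 5.01 and 5.18 and differed by 0.17 (-0.16 to 0.50).

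The steps had medians of -0.15 for synthesis, -0.71 for the transcription factors, 0.15 for desaturation, 0.10 for elongation, 0.10 for esterification and -0.01 for lipid droplets and lipolysis. These are descriptions of 2 to 9 genes each, and no test was made over the genes of a step.

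Several members were read by more than 1 probe set, and these did not always move alike. There were 15 members with 1 probe set and 21 with more, which added 36 further probe sets. Of the 28 of these that were tested, 16 had the sign of the probe set used and none was called. An unadjusted p under 0.05 was reached by 4 of them. These were both Lpin2 probe sets that were higher, with the same sign as the one used, and 1 probe set each of Elovl6 and Fads2, with the opposite sign. Of all 61 tested probe sets of members, GHRH-KO 5 lay at least 1 below both other GHRH-KO arrays in 7, or 11.5%, one each of Acly, Fads2, Elovl1, Lpin2, Dgat1, Dgat2 and Mgll. Over all probe sets tested this share was 2.46% for GHRH-KO 5 and 0.0756% to 0.509% for the other arrays, each set against the arrays of its own group. For Acly, Fads2, Elovl1, Lpin2, Dgat2 and Mgll another tested probe set did not show GHRH-KO 5 so low, while the only other Dgat1 probe set was at background (means of 4.72 and 4.69) and could not show a drop. GHRH-KO 5 lay at least 1 above both in 3 probe sets of Lpin1 and Lpin2, or 4.92%, against 0.318% of all probe sets tested. GHRH-KO 6 lay at least 1 below both other GHRH-KO arrays in 2, or 3.28%, of Lpin1 and Scd1, against 0.163%. Over the members, GHRH-KO 5 held the lowest or the highest of the 6 values in 19 of 33 genes, or 57.6%, against 49.4% of all genes. The part of this array in the differences of Srebf1, Lpin1, Lpin2, Fads2 and Dgat1 is given above by their values without it, and its cause was not tested.

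**Figure D4:**
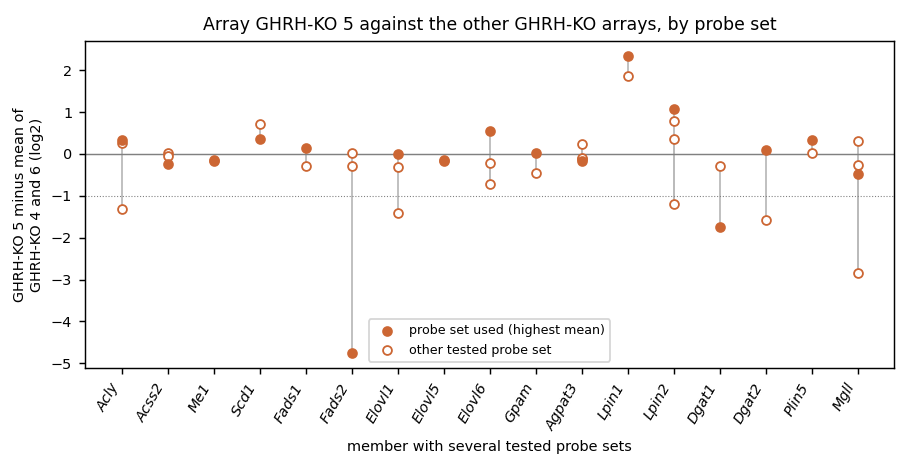
For each member with several tested probe sets, the value on GHRH-KO 5 minus the mean of GHRH-KO 4 and GHRH-KO 6 (log2), with a point per probe set, filled for the probe set used. Points of 1 gene lie far apart in Fads2 and Mgll, where 1 probe set lies well under the dotted line at -1 and the others above it, while both probe sets of Lpin1 lie above 1.

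Of 67 other genes of the same steps and of fat uptake, 63 had a probe set and 59 were tested. Of these 1 was called higher, and the number called lower was 0. At an unadjusted p under 0.05, 11 were higher, or 18.6%, and 3 lower, or 5.08%, beside the 9.15% and 10.1% of all genes. The groups lay apart with GHRH-KO above in 12 (20.3%) and below in 4 (6.78%), beside 12.7% and 15.7% of all genes. The called gene was Lpl, which encodes lipoprotein lipase, the enzyme that frees fatty acids from circulating lipoproteins. Lpl measured 8.02, 6.61 and 7.65 in controls and 9.24, 9.74 and 9.28 in GHRH-KO mice. It rose by 1.99 on the log2 scale (SE 0.35), or 3.98-fold, at an adjusted p of 0.0491 in limma, close to the threshold, and lost its call under 8 of the 17 alternatives.

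The 10 genes next in order of p did not pass the test, and 9 of them were higher. Scd2, another desaturase of the Scd family, measured 6.84, 5.55 and 5.70 in controls and 10.05, 8.77 and 7.82 in GHRH-KO mice, a difference of 2.85 (adjusted p 0.071 in limma). Pparg, a transcription factor that drives fat storage, measured 7.30, 6.52 and 7.01 against 7.82, 8.24 and 7.89, a difference of 1.04 (adjusted p 0.0777). Cd36, a fatty acid transporter, measured 10.78, 9.88 and 10.59 against 11.22, 11.58 and 11.35, a difference of 0.97 (adjusted p 0.111). In these 3 genes every GHRH-KO array lay above every control array. Thrsp, a lipogenic protein, differed by 0.52 (adjusted p 0.0762), Hacd2, a dehydratase of the elongation cycle, by 0.85 (0.096), Plpp1, a lipid phosphatase, by 0.87 (0.13), Fads3 by 0.34 (0.155), Gpat3, which starts triglyceride synthesis at the endoplasmic reticulum, by 0.45 (0.155), and Lclat1, a lysophospholipid acyltransferase, by 0.46 (0.2). Insig2, which holds SREBP precursors back in the endoplasmic reticulum, was the one lower, at -0.50 (adjusted p 0.125).

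**Figure D5:**
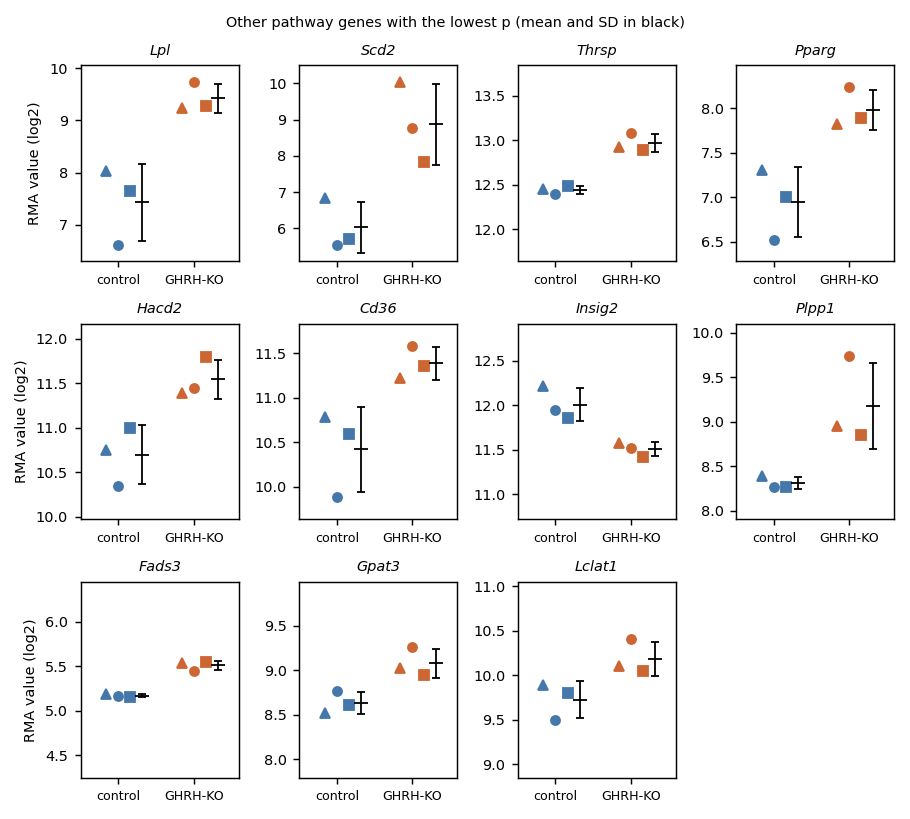
RMA values (log2) of Lpl and of the 10 other pathway genes with the next lowest p, in controls (blue; triangle, circle and square are controls 1, 2 and 3) and GHRH-KO mice (orange; GHRH-KO 4, 5 and 6), with the mean and SD in black and an axis per gene that does not start at 0. The groups do not overlap in any of the 11 genes, and Insig2 is the one with GHRH-KO mice below controls. The genes were chosen by low p, which favours groups that lie apart.

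Fat tissue and macrophages also express Lpl, Pparg and Cd36, so the levels of their markers are given beside these genes. Of 8 adipocyte markers with a probe set, 3 had means at background. The defining genes Adipoq (means of 3.85 in controls and 3.18 in GHRH-KO mice) and Lep (3.86 and 3.85) were among them. Adipoq read 4.98 in control 1, above the background level of 4.75, and 3.11 and 3.45 in controls 2 and 3. On the linear scale the summed level of the 8 ran from 17651 to 18534 in controls and from 18025 to 19458 in GHRH-KO mice. Car3, which hepatocytes also express, made up at least 91.1% of it on every array. Without Car3, Fabp4, Lpl and Pparg, 4 markers were left, Adipoq, Lep, Retn and Acvr1c. Their summed level ran from 85.1 to 99.1 in controls and from 83.9 to 93.2 in GHRH-KO mice. Adipoq, Lep and Acvr1c had means at background, so this sum is mostly floor and Retn. It cannot show whether the amount of fat tissue differed. Lpl and Pparg, the genes in question, are themselves among the 5 adipocyte markers tested, so these cannot be read apart from them. Of the 5, 4 had a difference above 0, with a median of 0.96, and 1, Lpl, was called. The remaining ones were Fabp4, Retn (difference 0.18) and Car3 (-0.0019). Fabp4, a fatty acid binding protein of adipocytes and macrophages, measured 7.68, 6.56 and 6.80 in controls and 7.18, 8.89 and 7.86 in GHRH-KO mice, a difference of 0.96 with groups that overlapped (adjusted p 0.323 in limma). All 10 Kupffer cell or macrophage markers were tested and none was called, 1 had an unadjusted p under 0.05, and their summed level ran from 2991 to 7583 in controls and from 3135 to 8825 in GHRH-KO mice. That one was Cd68, higher by 1.19 (unadjusted p 0.0116, adjusted p 0.155 in limma). Control 1 held the highest control value of every macrophage marker and of Lpl, Pparg, Cd36 and Fabp4. In GHRH-KO mice, GHRH-KO 4 held the highest values of the macrophage markers and GHRH-KO 5 those of Lpl, Pparg, Cd36 and Fabp4. Among markers of stellate cells (10 tested), endothelial cells (9), lymphocytes (3) and cholangiocytes (3) none was called. At an unadjusted p under 0.05 in limma there were 2 higher, 0, 1 higher and 1 lower in that order. Over all genes 9.15% were higher and 10.1% lower at that p. Differences above 0 were found in 8 of the 10 macrophage markers, and in 9, 8, 3 and 1 of these 4 lists in the same order. Beside these counts, the median difference of all genes tested was 0.0033. Markers of 1 cell type are not independent of each other. The part of adipocytes and macrophages in the levels of Lpl, Pparg and Cd36 was not tested.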

How the data were processed

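Liver RNA of 3 control and 3 GHRH-KO mice was hybridised to Affymetrix mouse arrays, 1 animal per array. The authors processed the arrays with RMA (version not given in the sources used here), which corrects background, equalises the distributions of the arrays and summarises probes, and deposited log2 values of 45101 probe sets. A shift of most genes together would therefore not be seen, and the number of arrays limits the precision.

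Here the 64 spike-in and other control probe sets were removed, and of the rest the brightest 25145 by mean were kept, the number that the methods keep after a MAS 5.0 detection filter. The difference of GHRH-KO and control arrays came from limma 3.58.1 (lmFit and eBayes) under R 4.3.3, with Benjamini-Hochberg adjustment across the 25145, and was tested on simulated data. Genes were named from the platform annotation, older symbols through gene identifiers, which left 12469 genes tested. Background was taken as the top Ghrh value, a choice made after the values were seen.

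The members and lists were chosen with earlier results of these data known. All 36 members are named, with the value of every array where called, with an unadjusted p under 0.05 or with groups apart. Of the other pathway genes, those called and the 10 with the next lowest p are named. Alternatives changed the intensity filter, the normalization, the probe sets, the fit and the arrays. Plots used matplotlib 3.10.9 (Python 3.11.15).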

Additional observations from a re-analysis of the deposited data

How the results depend on the processing

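The call of Elovl3 held under all 17 alternatives. Of the 31 members tested and not called, 15 kept the sign of their difference under every alternative and 16 did not, and none was called under any. Leaving out 1 array at a time gave 0 to 1 members called higher, 1 to 6 higher and 3 to 6 lower at an unadjusted p under 0.05 (3 and 5 with all arrays), and 0 to 1 other pathway genes called higher. Without both control 2 and GHRH-KO 5, 0 members were called higher and the median of elongation was 0.21 in place of 0.10. Without probe sets that may bind several transcripts, 2 members in place of 5 were lower at an unadjusted p under 0.05, since Srebf1 and Mlxipl then had none left and Agpat3 differed by 0.05. Other pathway genes called higher numbered 0 in place of 1 with no intensity filter, with arrays centred on their median and with the mean of the probe sets of a gene, and 3 with array weights, where Pparg (adjusted p 0.0324) and Hacd2 (0.0373) were added.

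Medians of the steps moved with the choice of probe set and of arrays. With the probe set of the lowest p, desaturation went from 0.15 to 0.37, elongation from 0.10 to -0.53 and lipid droplets and lipolysis from -0.0061 to 0.0756. With the mean of the probe sets of a gene, elongation was -0.0358 and esterification -0.0119, and esterification was 0.0146 with no intensity filter and 0.0037 with array weights. Leaving out 1 array at a time, the median of synthesis ran from -0.32 (without GHRH-KO 4) to -0.0072 (without GHRH-KO 6), of the transcription factors from -0.92 (without GHRH-KO 4) to -0.44 (without GHRH-KO 5), of desaturation from 0.0763 (without control 1) to 0.25 (without GHRH-KO 5), of elongation from 0.0201 (without control 1) to 0.16 (without control 2), of esterification from 0.0559 (without control 2) to 0.12 (without control 3), and of lipid droplets and lipolysis from -0.0327 (without control 1) to 0.196 (without control 3). The cause of these shifts was not tested. No paired analysis was possible because the labels do not say which control and GHRH-KO mice shared a litter. Genes near background, Lpin3, Cidea and Cidec among them, have too little signal for a difference to be read.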
